A study of Danio rerio with 4 samples.

Results

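Genes of the p53 pathway and the DNA damage response were followed in zebrafish liver RNA from control fish and from fish given cadmium. The rule picks probes by gene name, but the genes were chosen with earlier results of these data known. The set listed 8 genes (mdm2, cdkn1a, ccng1, ddb2, gadd45aa, gadd45ba, gadd45ga and sesn3), and a probe belonged to it if the array's annotation gave it one of these symbols. This found 14 of the 43603 probes, for 7 of 15554 named genes. No probe carried the symbol cdkn1a, so the cell cycle inhibitor p21 that this gene encodes was not analysed here. The genes mdm2, ccng1 and gadd45ba had 3 probes each, gadd45aa had 2, and ddb2, gadd45ga and sesn3 had 1.

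Liver RNA of Danio rerio was hybridised to 4 two-colour arrays, with cadmium at 0 or 5 µM and sampling at day 4. The control RNAs were replicates 2 and 3 and the cadmium RNAs replicates 1 and 2, and each array held 1 RNA of either group. Array 1 set cadmium replicate 1 against control replicate 2, and array 2 set the same cadmium RNA against control replicate 3. Array 3 set cadmium replicate 2 against control replicate 3, and array 4 set it against control replicate 2. The labels name no strain, age or sex, and do not tell whether an RNA came from 1 fish or from a pool. The dose unit is that of the design text, and the source names carry a temperature unit beside the same number.

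The tumour suppressor p53 is a transcription factor that is held at a low level by Mdm2, a ubiquitin ligase that is itself encoded by a p53 target gene. When DNA is damaged, kinases such as ATM and ATR stabilise p53, which then raises genes for cell cycle arrest, repair and cell death. Cadmium is known to interfere with DNA repair proteins and to raise oxidative stress, and the liver is a main site of its accumulation. Several of the genes described here also answer to other signals. In mammals the Gadd45 genes respond to stress kinases and NF-kB, and sestrin genes to FoxO factors and to nutrient stress.

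All values are log2 ratios turned to cadmium over control, or log2 levels of an RNA relative to the mean of the 4 RNAs. Their sign takes the deposited ratio as Cy5 over Cy3. This is likely but not stated, and with the opposite reading every sign below would turn. Differences are given with a moderated standard error (SE, 2 RNAs per group). Ratios hold no absolute level, so neither the abundance of a gene nor the presence of liver markers could be read from them. Nor can bulk RNA tell fewer cells of a type from less RNA per cell.

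Across the 7 measured genes, ddb2 was the one with a higher level in both cadmium RNAs, whereas gadd45ga, sesn3 and ccng1 were lower in both. The Mdm2 gene and gadd45aa were at 0.03 and -0.23, and gadd45ba differed mainly between the 2 cadmium RNAs. None of these differences passed the test. In limma, 0 of 14 probes and 0 of 7 genes had an adjusted p under 0.05, as for all probes (0%) and all genes (0%), and the adjusted p of every member was 1.00. At an unadjusted p under 0.05 there were 3 of 7 genes (ddb2, gadd45ga and ccng1) against 2.02% of all genes, and 4 of 14 probes against 1.52% of all probes. All 4 arrays lay on one side of 0 for 4 of 7 genes against 14.9% of all genes, and for 8 of 14 probes, 1 higher and 7 lower, against 13.2% of all probes. Both cadmium RNAs lay on one side of both control RNAs for the same 4 genes (ccng1, ddb2, gadd45ga and sesn3), against 21.8% of all genes. The median difference over the 7 genes was -0.29, against 0.02 over all genes. Because the members were chosen with earlier results of these data known, these shares describe them and are no test of enrichment. Probes of 1 gene repeat each other, and the RNA levels are the same 4 ratios solved anew, so the counts are not independent. With 2 RNAs against 2, an exact two-sided permutation test cannot give a p below 0.333.

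**Figure D1:**
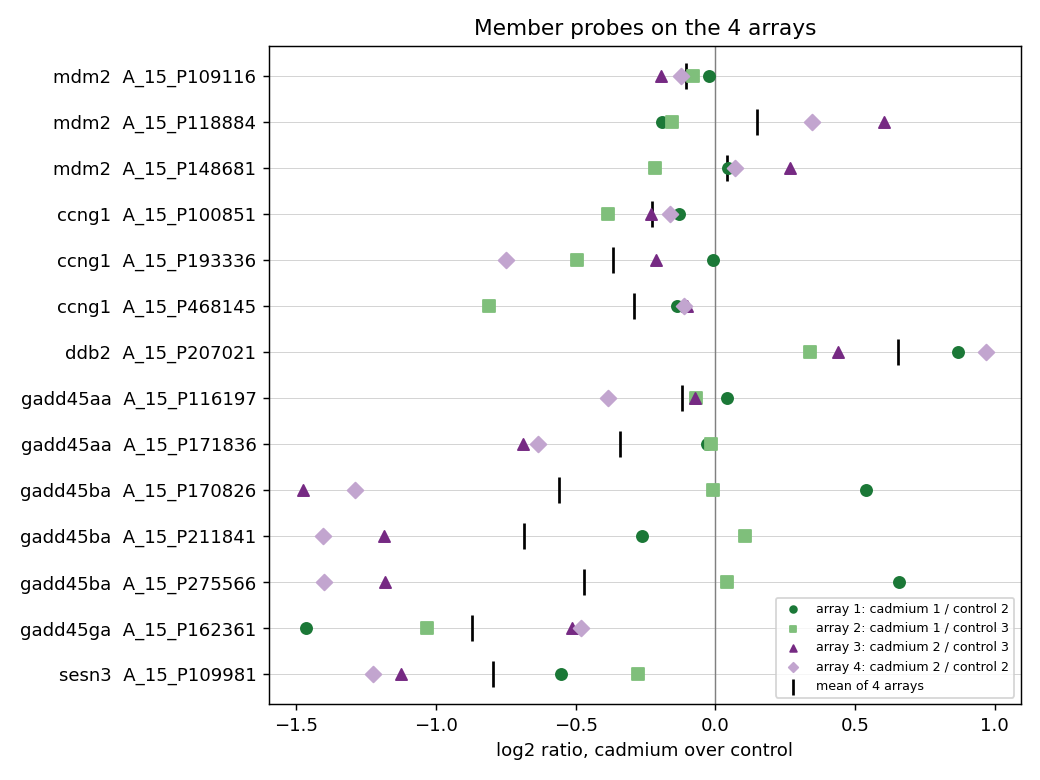
Each row is 1 probe, named by gene and probe, and the x axis is its log2 ratio of cadmium over control. Symbols stand for the 4 arrays and the black bar for their mean. The ddb2 probe lies right of 0 on all 4 arrays and the gadd45ga and sesn3 probes left of it, and the gadd45ba probes lie far left on arrays 3 and 4, which carry cadmium replicate 2.

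The feedback regulator mdm2 (Entrez Gene 30637) showed little difference between the groups. Averaged over its 3 probes, the log2 ratio was -0.06, -0.15, 0.22 and 0.10 on arrays 1 to 4. The 2 arrays with cadmium replicate 1 were below 0 and the 2 with cadmium replicate 2 above it. The difference was 0.03 ± 0.12, with a 95% interval from -0.32 to 0.38. The control RNAs, at -0.01 and -0.02, lay between cadmium replicate 1 (-0.12) and cadmium replicate 2 (0.15). The probes differed: A_15_P118884 ranged from -0.19 on array 1 to 0.60 on array 3, whereas A_15_P109116 stayed between -0.20 and -0.02. The mean of mdm2 turned to -0.10 without cadmium replicate 2 and to -0.01 after quantile normalization.

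Cyclin G1, encoded by ccng1 (Entrez Gene 171473), is a p53 target product that in mammals recruits a phosphatase to Mdm2. The mean of its 3 probes was -0.09, -0.56, -0.18 and -0.34 on arrays 1 to 4. All 4 arrays were below 0, array 1 only just and array 2 by the most. The difference was -0.29 ± 0.10 (unadjusted p = 0.0439 and adjusted p = 1.00 in limma), which is a ratio of 1.23 in favour of the control. Both control RNAs (0.07 and 0.22) were above both cadmium RNAs (-0.18 and -0.11). All 3 probes were below 0 on all 4 arrays, at -0.23, -0.37 and -0.29 for A_15_P100851, A_15_P193336 and A_15_P468145. Of the members, ccng1 carried the largest dye effect (-0.16), and that of probe A_15_P193336 was -0.26, against a median size of 0.06 over all probes. When 1 RNA at a time was left out, ccng1 lay between -0.37 and -0.22.

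The damage-binding protein gene ddb2 (Entrez Gene 100004133) encodes the sensor subunit that finds ultraviolet lesions for nucleotide excision repair, and in humans it is a p53 target. Its 1 probe, A_15_P207021, gave 0.87, 0.34, 0.44 and 0.97 on arrays 1 to 4. All 4 values were above 0, and the 2 high ones came from the arrays with control replicate 2. The difference was 0.65 ± 0.21, a ratio of 1.57 (95% interval on the log2 scale from 0.07 to 1.24, unadjusted p = 0.0363, adjusted p = 1.00 in limma). The cadmium RNAs were close together at 0.28 and 0.38, whereas the controls were apart at -0.59 for replicate 2 and -0.06 for replicate 3. Without control replicate 2 the difference was 0.39, and without control replicate 3 it was 0.92. Measured through control replicate 3, cadmium replicate 2 exceeded cadmium replicate 1 by 0.10, and through control replicate 2 also by 0.10. These 2 paths differ only by the dye effect, which they carry with opposite signs, so their likeness restates its small size (0.0004).

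Growth arrest and DNA damage inducible 45 proteins are small regulators of stress kinases and of the cell cycle, and 3 of their genes were members. The gamma gene gadd45ga (Entrez Gene 402991, probe A_15_P162361) gave -1.47, -1.03, -0.51 and -0.48 on arrays 1 to 4. Every array was below 0, and the arrays of cadmium replicate 1 were the lower ones. The difference was -0.87 ± 0.29, which is 1.83 times less in the cadmium RNAs (95% interval from -1.68 to -0.06, unadjusted p = 0.0406, adjusted p = 1.00 in limma). By size it ranked 63 of 15554 genes. The 2 controls stood at 0.54 and 0.34, cadmium replicate 2 at -0.06 and cadmium replicate 1 at -0.81. Without cadmium replicate 1 the difference was -0.50, and without cadmium replicate 2 it was -1.25.

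The beta gene gadd45ba (Entrez Gene 406304) had an opposite order of the cadmium RNAs. The mean of its 3 probes was 0.31 and 0.05 on arrays 1 and 2, but -1.28 and -1.37 on arrays 3 and 4. By this mean cadmium replicate 2 was far below both controls, while cadmium replicate 1 was level with or above them. The levels were 0.24 and 0.33 in the controls, 0.47 in cadmium replicate 1 and -1.04 in cadmium replicate 2. All 3 probes showed the low values, between -1.48 and -1.18 on arrays 3 and 4. On array 1 they split, with A_15_P211841 at -0.26, A_15_P170826 at 0.54 and A_15_P275566 at 0.66. Cadmium replicate 2 lay below cadmium replicate 1 by a log2 difference of -1.33 through control replicate 3 and -1.68 through control replicate 2. The group difference of -0.57 ± 0.54 (95% interval from -2.09 to 0.95) was therefore about as large as its error. Without cadmium replicate 1 it was -1.32, and without cadmium replicate 2 it turned to 0.18, although probe A_15_P211841 stayed at -0.08.

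For the alpha gene gadd45aa (Entrez Gene 393548) the mean of 2 probes was 0.01, -0.04, -0.38 and -0.51 on arrays 1 to 4. As for gadd45ba, the lower values came from the arrays of cadmium replicate 2, at -0.33 against 0.14, 0.10 and 0.10 in control replicates 2 and 3 and cadmium replicate 1. The difference was -0.23 ± 0.17, at -0.44 without cadmium replicate 1 and -0.02 without cadmium replicate 2. Probe A_15_P171836 gave -0.69 and -0.64 on arrays 3 and 4, where A_15_P116197 gave -0.07 and -0.38. The remaining genes of the family, named here after their values were seen, lay close to 0 as group differences. These were -0.01 ± 0.15 for gadd45ab, -0.01 ± 0.12 for gadd45bb and -0.01 ± 0.09 for gadd45gb.1, each from 1 probe. Over the 6 family genes measured, the difference thus ran from -0.87 to -0.01, and differences between family members were not tested.

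Sestrin 3, the product of sesn3 (Entrez Gene 406840), belongs to a family of stress proteins that restrain the growth kinase complex mTORC1. Its 1 probe, A_15_P109981, gave -0.55, -0.28, -1.13 and -1.23 on arrays 1 to 4. All 4 arrays were below 0, and those of cadmium replicate 2 were the lowest. The difference was -0.80 ± 0.29, a ratio of 1.74 in favour of the control (95% interval from -1.61 to 0.02, unadjusted p = 0.0537, adjusted p = 1.00 in limma). The controls were at 0.49 and 0.30, cadmium replicate 1 at -0.02 and cadmium replicate 2 at -0.78, so the groups did not overlap. Without cadmium replicate 2 the difference was -0.42. The other sestrin genes, also named after their values were seen, were at -0.04 ± 0.24 (sesn1), 0.09 ± 0.15 (sesn2) and 0.13 ± 0.18 (sesn4). For sesn1 the cadmium RNAs lay on either side of both controls, at 0.29 and -0.33.

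**Figure D2:**
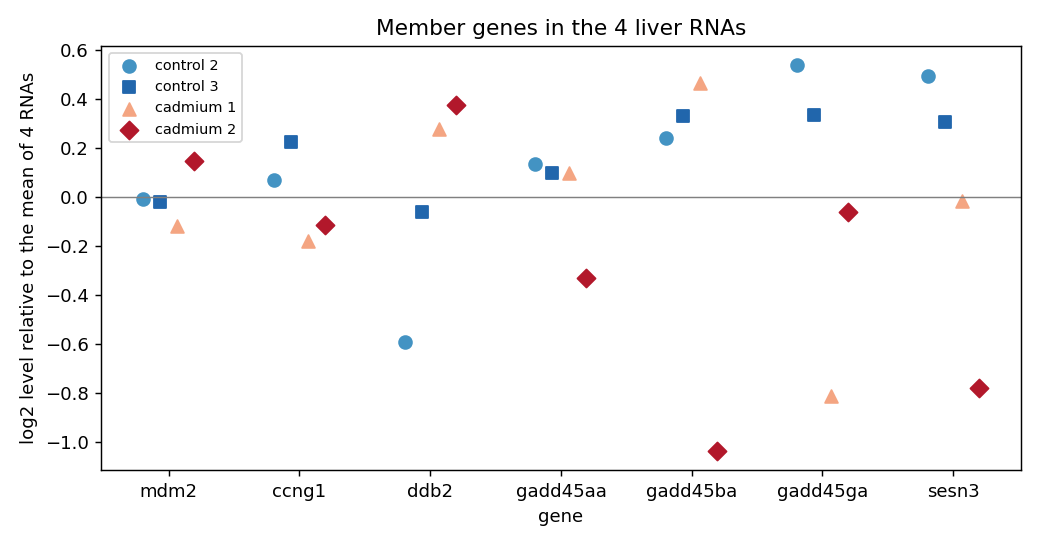
The log2 level of each of the 7 measured genes is plotted for the 2 control and 2 cadmium RNAs, relative to the mean of the 4. Both controls lie above both cadmium RNAs for ccng1, gadd45ga and sesn3 and below them for ddb2, whereas gadd45ba and gadd45aa are low in cadmium replicate 2 alone.

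The RNAs of one group also differed from each other. Over the 14 probes, which repeat each other within a gene, the median size of the difference between the cadmium RNAs was 0.50, against 0.17 between the controls. The same medians over all probes were 0.13 and 0.11. By gene, the difference between the cadmium RNAs was the larger in 5 of 7 members (71.4%), near the 63.8% of all genes. For ddb2 and ccng1 the controls differed more, by 0.53 and 0.16 in size against 0.10 and 0.07 between the cadmium RNAs. When cadmium replicate 1 was left out, so that cadmium replicate 2 was the single treated RNA and its spread was borrowed from the controls, limma called 2 of 7 genes, gadd45ba (-1.32, adjusted p = 0.0101) and sesn3 (-1.18, adjusted p = 0.0131), both lower. The background of that fit was 9.36% of all genes. In the same fit 5.79% of all probes were called, and among the members 5 of 14 were, all 3 gadd45ba probes, the sesn3 probe and A_15_P171836 of gadd45aa. When cadmium replicate 2 was left out, 0 members and 0 of all genes were called (771 genes at an unadjusted p under 0.05).

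**Figure D3:**
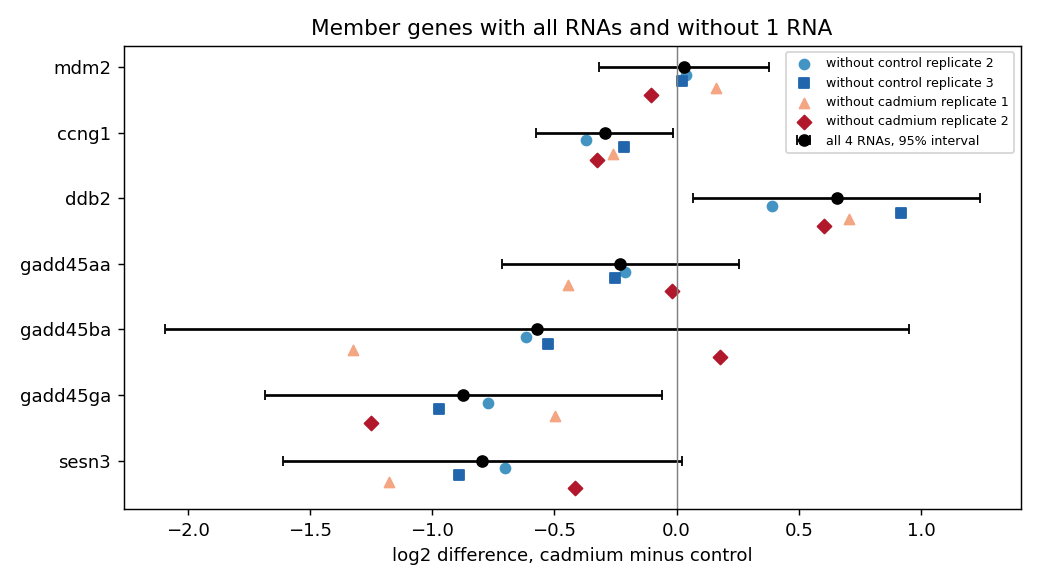
Black points are the log2 differences of the 7 genes (cadmium minus control) with 95% intervals from limma, and coloured symbols the values without 1 RNA. Each value without 1 RNA is the mean of the 2 arrays that lack that RNA. Because their 4 arrays share a sign, ddb2, ccng1, gadd45ga and sesn3 must stay on one side of 0. Values for gadd45aa also stay below 0, whereas those of mdm2 and gadd45ba cross it without cadmium replicate 2.

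For members whose 4 arrays fell on the same side of 0 and whose difference reached 0.5 in size (3 genes, against 1.73% of all genes), the nearest array profiles were sought among all named genes. Likeness was the root mean square difference over the 4 array ratios. Nearest to ddb2 were hsf2, a heat shock factor gene (0.08), xbp1, a transcription factor gene of the endoplasmic reticulum stress response (0.12), and ncln (0.16). Nearest to sesn3 were zgc:92161 (0.11), the homeobox factor gene hhex (0.13) and pmp22a (0.14). The profile of gadd45ga had no neighbour as close, the nearest being the heme oxygenase gene hmox1b (0.28), the mitochondrial arginase gene arg2 (0.35) and sult6b1 (0.38). Each of these genes had 1 probe, and 4 ratios from 4 shared RNAs describe likeness only loosely.

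A wider set of 220 genes of the pathway, in 8 lists by role, was taken alongside, and 176 of them were measured. In limma 0 of the 176 genes passed, and 2 had an unadjusted p under 0.05, 1 higher (apex1) and 1 lower (cdkn1bb), which is 1.14% against the background of 2.02%. All 4 arrays lay on one side for 31 genes, 18 higher and 13 lower, or 17.6%, close to the 14.9% of all genes. The group difference was above 0 for 123 of the 176 (69.9%), against 56.9% of all genes, the share to set beside each count of higher genes that follows. The median difference of the 176 genes was 0.07, and that of all genes 0.02. Without cadmium replicate 1 the median difference of the 176 genes was 0.13, against 0.02 over all genes, and 122 were higher (69.3%, against 55.0% of all genes).

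Among 11 regulators of p53, 8 were higher, and 6 without control replicate 3 (54.5%, against 55.4% of all genes). The 2 leading ones were tp53rk, which encodes a kinase of the KEOPS complex (0.57 ± 0.21, all 4 arrays above 0), and ppm1da, encoding a phosphatase that switches off p53 signalling (0.27 ± 0.27). The latter was at 0.48 in cadmium replicate 2 and -0.22 in cadmium replicate 1, and without cadmium replicate 2 it was at -0.08. Without control replicate 3, tp53rk was at 0.35. The paralogue of mdm2, mdm4, was chosen with its value known and stood at 0.04 ± 0.22.

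Of 32 further genes listed under p53 targets of arrest and metabolism, 15 were higher and 17 lower, with a median of -0.01. The list also took in relatives and other cell cycle genes, such as cdkn1bb, cdkn2c and ccnd1. The autophagy regulator gene dram1 was at -0.62 ± 0.35, with array values of -0.25, -0.04, -1.28 and -0.90. Like sesn3 it was lowest in cadmium replicate 2 (-0.78), and without that RNA it was at -0.15. The cyclin-dependent kinase inhibitor gene cdkn1bb, a p27 gene, was at -0.25 ± 0.08 (unadjusted p = 0.0413, adjusted p = 1.00 in limma), with both cadmium RNAs below both controls. Cyclin G2, encoded by ccng2 and picked here as the paralogue of ccng1, was at -0.45 ± 0.31, and its low RNA was again cadmium replicate 2 (-0.64, against 0.18, 0.27 and 0.19).

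Of 24 genes of cell death 17 were higher, with a median of 0.04 against 0.02 over all genes. The proapoptotic BH3 gene bida was at -0.36 ± 0.13, below 0 on all 4 arrays, and at -0.22 without control replicate 2. The cytochrome c gene cycsb was at 0.47 ± 0.20, its mean above 0 on all 4, and at 0.21 without cadmium replicate 2. On array 2 its probes split, with A_15_P140471 at 0.34 and A_15_P600857 at -0.24. The Puma gene bbc3, a classical p53 target of apoptosis picked after its value was seen, was at 0.03, and the Bax gene baxa, picked likewise, was at -0.04.

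Damage signalling genes were higher in 15 of 21 cases. Their median level stood at 0.35 for cadmium replicate 2 and -0.19 for cadmium replicate 1, with the controls between at -0.08 and -0.02. The checkpoint clamp loader gene rad17 was at 0.77 in cadmium replicate 2 and at -0.28 in cadmium replicate 1, for a difference of 0.49 ± 0.39, and at -0.03 without cadmium replicate 2. In contrast the histone variant gene h2ax, whose product is phosphorylated at DNA breaks, was at -0.51 ± 0.18, with arrays at -0.25, -0.31, -0.76 and -0.73. Both h2ax probes were below 0 on all 4 arrays, and without cadmium replicate 2 the gene was at -0.28.

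Repair genes were higher in 14 of 20 cases for nucleotide excision, 14 of 18 for base excision and single-strand repair, 19 of 21 for double-strand breaks and 21 of 29 for mismatch, crosslink, reversal and tolerance. All 4 arrays lay on one side of 0 for 1, 3, 0 and 6 genes of these lists in turn, against 14.9% of all genes. Both cadmium RNAs lay on one side of both controls for 3, 4, 1 and 9 genes, against 21.8% of all genes. The abasic site nuclease gene apex1 had the smallest p of these lists, at 0.53 ± 0.16 (unadjusted p = 0.0311, adjusted p = 1.00 in limma). Its 3 probes gave 0.38, 0.79 and 0.42, each above 0 on all 4 arrays, and without cadmium replicate 2 it was at 0.35. The repair polymerase gene polb was at 0.32 ± 0.16 and the photolyase family gene cry-dash at 0.55 ± 0.22, both above 0 on all 4 arrays. Without cadmium replicate 2 they were at 0.15 and 0.30. The photolyase gene cry5 was at 0.21 ± 0.10, but its probes were at -0.01 and 0.43. Of the excision genes that act beside ddb2, the lesion sensor gene xpc was at 0.17 ± 0.10, with 0.10 without control replicate 2. The Ddb1 gene ddb1, picked as the partner of ddb2, was at 0.07 ± 0.10, and the helicase complex gene gtf2h3 was at 0.28 ± 0.18 (0.06 without cadmium replicate 2). For double-strand breaks the leading genes were xrcc4, an end-joining factor gene (0.20 ± 0.13, and 0.07 without control replicate 3), and rad54l, of homologous recombination (0.16 ± 0.13, and 0.02 without cadmium replicate 2).

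**Figure D4:**
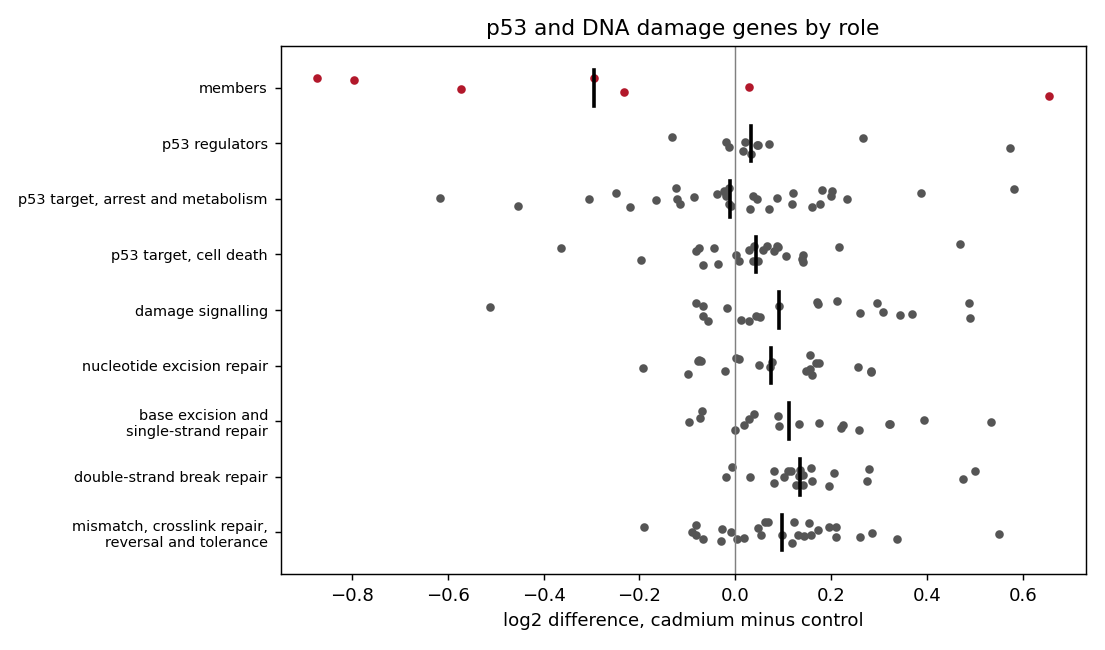
Each point is 1 gene, placed by its log2 difference (cadmium minus control) within its list, with a vertical bar at the list's median and random vertical scatter for legibility. Of the 7 members, in red, gadd45ga and sesn3 lie further below 0 and ddb2 further above it than any gene of the wider lists. The medians of these 8 lists lie between -0.01 and 0.13. Members and lists were chosen with earlier results of these data known, so this order is a description only.

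Several of the higher counts of the wider lists fell without 1 RNA, in which the medians of ovary and proliferation markers were highest. Cadmium replicate 2 was the highest RNA for 100 of the 176 genes (56.8%, against 38.7% of all genes) and for 17 of the 21 double-strand break genes. All 26 measured markers of ovary and oocyte, among them the egg coat gene zp3 and the germ cell gene dazl, were also highest in that RNA. The median level of these markers stood at 1.41 in cadmium replicate 2 against -0.71 in cadmium replicate 1 and -0.42 and -0.16 in the controls. For 23 markers of proliferation the corresponding medians were 0.77, -0.45, -0.22 and -0.08, with cadmium replicate 2 highest for 21 of them. The wider set shared 0 measured genes with either marker list, which does not make the lists independent. They were written with earlier results of these data known and hold related genes, such as birc5a in the wider set and birc5b on the proliferation list. Without cadmium replicate 2 the count of higher genes among the 176 dropped from 123 to 74, that of damage signalling from 15 to 3 of 21, and that of double-strand break repair from 19 to 3 of 21. The share over all genes dropped too, from 56.9% to 47.5%. The count went to 10 of 24 for cell death, 9 of 18 for base excision and 13 of 29 for mismatch, crosslink, reversal and tolerance. It was 13 of 20 for nucleotide excision, 17 of 32 for arrest and metabolism and 6 of 11 for regulators of p53. Whether ovary RNA contributed to these counts was not tested.

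The members had no common order relative to these markers. In cadmium replicate 2, where the ovary markers were highest, gadd45ba, sesn3 and gadd45aa were at their lowest, and mdm2 and ddb2 at their highest. In cadmium replicate 1, where 23 of the 26 ovary markers were lowest, gadd45ga, ccng1 and mdm2 were lowest. The differences of ccng1 and ddb2 were about as large whichever cadmium RNA was left out. They were -0.26 without cadmium replicate 1 and -0.33 without cadmium replicate 2 for ccng1, and 0.70 and 0.60 for ddb2. Leaving out a control moved them more. For ccng1 the difference was -0.37 without control replicate 2 and -0.22 without control replicate 3, and for ddb2 0.39 and 0.92. Pancreas markers differed between the controls, with medians of 0.68 in replicate 2 and -0.86 in replicate 3. The red cell, leukocyte and liver lists had medians between -0.08 and 0.06 in every RNA. Of 17 leukocyte markers, however, 15 were lower in the cadmium group and 2 higher (11.8%, against 56.9% of all genes). For 9 of the 17 (52.9%, against 29.4% of all genes) the lowest RNA was cadmium replicate 2, as for gadd45ba, sesn3 and gadd45aa. Without that RNA 8 of the 17 were higher (47.1%, against 47.5% of all genes). Whether other tissue contributed to the members' values was not tested.

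**Figure D5:**
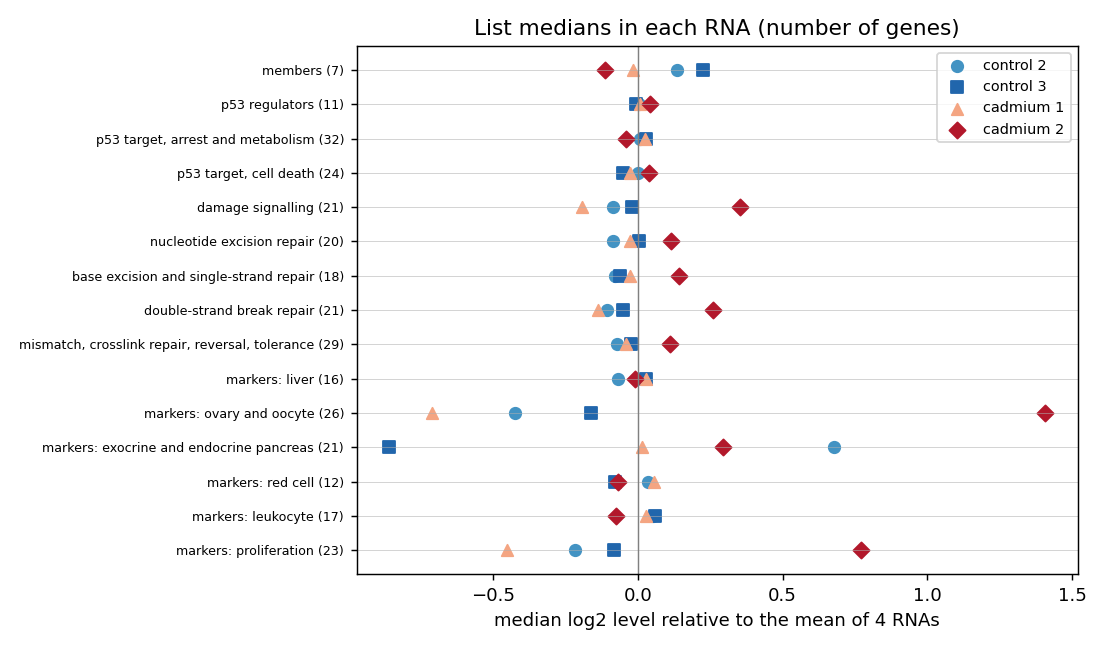
The x axis gives the median log2 level of each gene list in each RNA, relative to the mean of the 4 RNAs, with the number of measured genes in brackets. Cadmium replicate 2 stands far to the right for the ovary and proliferation markers and less so for the damage signalling and repair lists. The members' median is lowest in that RNA, but only 3 of the 7 members are lowest there. In cadmium replicate 1 another 3 are lowest, and 2 are highest in cadmium replicate 2.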

How the data were processed

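The authors deposited a log2 ratio of Cy5 and Cy3 signal for each of 43603 probes on each array, with 0 missing. The authors used limma, per the submitters' processing notes, without a version. How background and dye bias were treated before deposit is not given in the sources used here. The file holds no signal or background per spot, so no filter on dim probes was made. The number of RNAs, 2 in each group, limits the precision. Column medians lay between -0.00045 and 0.0037. Base 2 was inferred from the largest value, 6.14.

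The direction of the ratio was taken as Cy5 over Cy3, limma's convention and the order of the titles. That all 4 columns run the same way was checked by their sum, which a loop cancels whichever dye is on top. It had an SD of 0.378 over probes, against 0.712 for the columns turned to cadmium over control, and says nothing of the direction itself. Arrays of one dye orientation share no RNA, and correlated over all probes at -0.04 (arrays 1 and 3) and -0.22 (arrays 2 and 4). Over all probes the cadmium over control ratios thus did not recur between arrays that held different RNAs.

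The 4 ratios were solved for 3 RNA differences and 1 dye effect, and 2 cadmium RNAs were compared with 2 controls (lmFit and eBayes, limma 3.58.1, R 4.3.3, two-sided, Benjamini-Hochberg over all probes or genes, threshold 0.05). The RNA was the unit, with 2 residual degrees of freedom and prior degrees of freedom of 2.17 (probe fit) and 1.91 (gene fit). A gene's value was the mean of its probes. The fit was also run on simulated data with known differences and no dye effect. That check covered the mean estimates only, not the p-values or the power of 2 RNAs against 2. The design text calls the replicates biological without saying how they were separated, so p-values refer only to the spread among the 4 RNAs.

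Probes were named by the platform's annotation (23717 with 1 symbol, 0 with several, 19886 unnamed here), and 23534 of the named probes had their gene identifier in the RefSeq table. Of 364 genes written into lists, 296 list entries matched by symbol and 4 by synonym. Members and lists were chosen with earlier results of these data known. Named genes are all members, and from each wider list the 2 with the largest moderated t plus any whose 4 arrays share a sign and whose difference is 0.5 or more in size. Further relatives and classical targets (mdm4, ccng2, ddb1, bbc3, baxa and the remaining Gadd45 and sestrin genes) were added after their values were seen. Alternatives were scaling or quantile normalization of the arrays, arrays as units with or without a dye term, leaving out each RNA, a robust prior, named probes only, and the median over probes.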

Additional observations from a re-analysis of the deposited data

How the results depend on the processing

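The count of 0 called probes and genes held under scaling, quantile normalization, arrays as units with a dye term, a robust prior, named probes only and the median over probes. With arrays as units and no dye term, 3 probes and 2 genes were called, none of them members. Leaving out 1 RNA gave 0 to 2523 called probes and 0 to 1456 called genes, the highest without cadmium replicate 1. Member probes on one side numbered 8 in the main fit and 10 to 14 when the 2 arrays of 1 RNA were dropped, since fewer arrays had to concur. The share over all probes was not counted for the 2 remaining arrays, so these higher counts have no background to be set against.

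Of 37 differences (7 member genes, 14 member probes and 16 genes of the wider lists), 37 kept their sign under scaling. Under quantile normalization 36 did, the exception being mdm2 (-0.0085). Arrays as units give the same differences as the main fit by construction, so no sign could change there. Without cadmium replicate 2, 8 turned: gadd45ba (0.18), its probes A_15_P170826 (0.26) and A_15_P275566 (0.35), mdm2 (-0.10), its probes A_15_P118884 (-0.17) and A_15_P148681 (-0.084), ppm1da (-0.084) and rad17 (-0.032). The range without 1 RNA was -1.32 to 0.18 for gadd45ba, -0.10 to 0.16 for mdm2, -1.38 to 0.26 for A_15_P170826, -1.29 to 0.35 for A_15_P275566, -0.17 to 0.47 for A_15_P118884, -0.084 to 0.17 for A_15_P148681, -0.084 to 0.62 for ppm1da and -0.032 to 1.01 for rad17. The cause was not tested. No paired analysis was possible because the groups share only 1 replicate number.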
